A study of Danio rerio with 16 samples.

Results

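Genes were compared by how their transcript level changed from 24 to 48 hours post fertilisation (hpf) in zebrafish embryos lacking function of lipf and pla2g15 and in wild-type embryos. The quantity is an interaction: the log2 difference between mutants and siblings at 48 hpf minus the same difference at 24 hpf. A positive value means that mutants gained on siblings with age, and a negative value that they lost ground. All 16 libraries of the series entered, and all 24300 genes with enough reads were tested, of 36109 in the deposited counts. Of these, 244 genes (1.00%) were called, 118 higher (0.486%) and 126 lower (0.519%). These are the shares to set beside the counts of called members given below for each gene list.

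The libraries formed 4 groups of 4. The group sib24 held wild-type siblings at 24 hpf, mut24 held lipf/pla2g15 knockouts at 24 hpf, and sib48 and mut48 held the same genotypes at 48 hpf, with no treatment in any group. The sources used here state neither the alleles nor how many embryos went into a library. The sample labels call the tissue body and the series speaks of whole embryos, and transcripts of the yolk syncytial layer, the cell layer that passes yolk nutrients to the embryo, were present in all 16 libraries. Library totals ran from 35851808 to 50462333 counts, so that a level of 1 CPM, the scaled count used here (counts-per-million), stood for 34.2 to 49.6 reads. In a bulk sample, fewer cells of a type and less RNA per cell cannot be told apart.

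Neither targeted gene gave an interaction call. For lipf, an acid lipase gene, all 4 mutant libraries of each age lay below all 4 sibling libraries. Its levels were 9.85, 12.02, 25.2 and 8.84 CPM in sib24 and 2.34, 0.577, 1.59 and 1.51 in mut24, then 31.6, 18.5, 17.0 and 24.0 in sib48 and 2.33, 2.24, 2.03 and 3.03 in mut48. Its interaction was -0.02 (SE 0.52, edgeR adjusted p = 0.994). Levels of the lysosomal phospholipase A2 gene pla2g15 overlapped between genotypes at both ages, with an interaction of -0.10 (SE 0.52, edgeR adjusted p = 0.954). Its transcript level gives no check of the genotype labels.

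Zebrafish embryos live on yolk until they feed. The yolk syncytial layer breaks down yolk lipid and packs it into lipoproteins, and lipases on vessel walls release fatty acids from these particles for the tissues. Srebf1 is the transcription factor that drives fatty acid synthesis and desaturation, the Ppar receptors drive fatty acid oxidation, and factors of the Tfeb family drive lysosomal genes. In the same hours Hedgehog, Notch and Fgf signals pattern the neural tube and other organs.

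For most of the 244 genes a genotype difference was called at the later age. The difference between genotypes was itself called at 48 hpf and not at 24 hpf for 178 genes (94 higher and 84 lower), at 24 hpf only for 27, at both ages for 10 and at neither for 29. Over all tested genes, 7.43% were called between genotypes at 48 hpf (2.84% higher and 4.59% lower in mutants) and 0.831% at 24 hpf (0.391% higher and 0.440% lower). The estimated difference was larger in size at 48 hpf for 184 of the 244, and its sign was opposite at the 2 ages for 186. These genotype differences come from the same 16 libraries as the interaction and are given to describe it. Calling genes on the gap between the 2 estimates favours opposite signs and unequal sizes, and neither count was made over all tested genes. Differences called at both ages in opposite directions numbered 5. Interactions of called genes ran from 0.37 to 6.22 in size with a median of 0.79 (1.73-fold), and 82 reached 2-fold. The median signed interaction over all tested genes was -0.03. With DESeq2 instead of edgeR 464 genes were higher and 436 lower, among them 242 of the 244, and 3884 genes had an unadjusted p under 0.05 in edgeR.

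The balance of higher and lower genes depended on scaling. It was 131 higher and 93 lower with RLE scaling and 148 higher and 77 lower with upper-quartile scaling, and no called gene changed sign under either. The number of calls also depended on single libraries, from 83 without sib48 replicate 2 and 116 without mut24 replicate 2 up to 331 without sib48 replicate 1 and 339 without mut48 replicate 1. In all 16 fits that left out 1 library, 71 of the 244 stayed called (44 higher and 27 lower). Markers of the yolk syncytial layer split the 24 hpf libraries within each genotype: their mean log2 CPM was 3.73, 5.01, 5.64 and 2.94 in sib24 and 6.002, 2.46, 5.34 and 2.21 in mut24, against 5.18 to 5.67 in sib48 and 4.88 to 5.04 in mut48. Without the 4 libraries lowest in these markers (sib24 replicates 1 and 4, mut24 replicates 2 and 4), 69 genes were higher and 33 lower. Of the 244, 64 were still called and all 244 kept their sign. That fit shares its libraries with the main one, so a kept sign is no independent support. It also has fewer libraries at 24 hpf, and the part of that in the lost calls was not tested. With the mean of these markers as a covariate on all 16 libraries, 232 genes were higher and 255 lower, and all 244 were still called. This covariate comes from the same counts and varied mostly within the 24 hpf groups, so the kept calls are no independent support either.

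**Figure D1:**
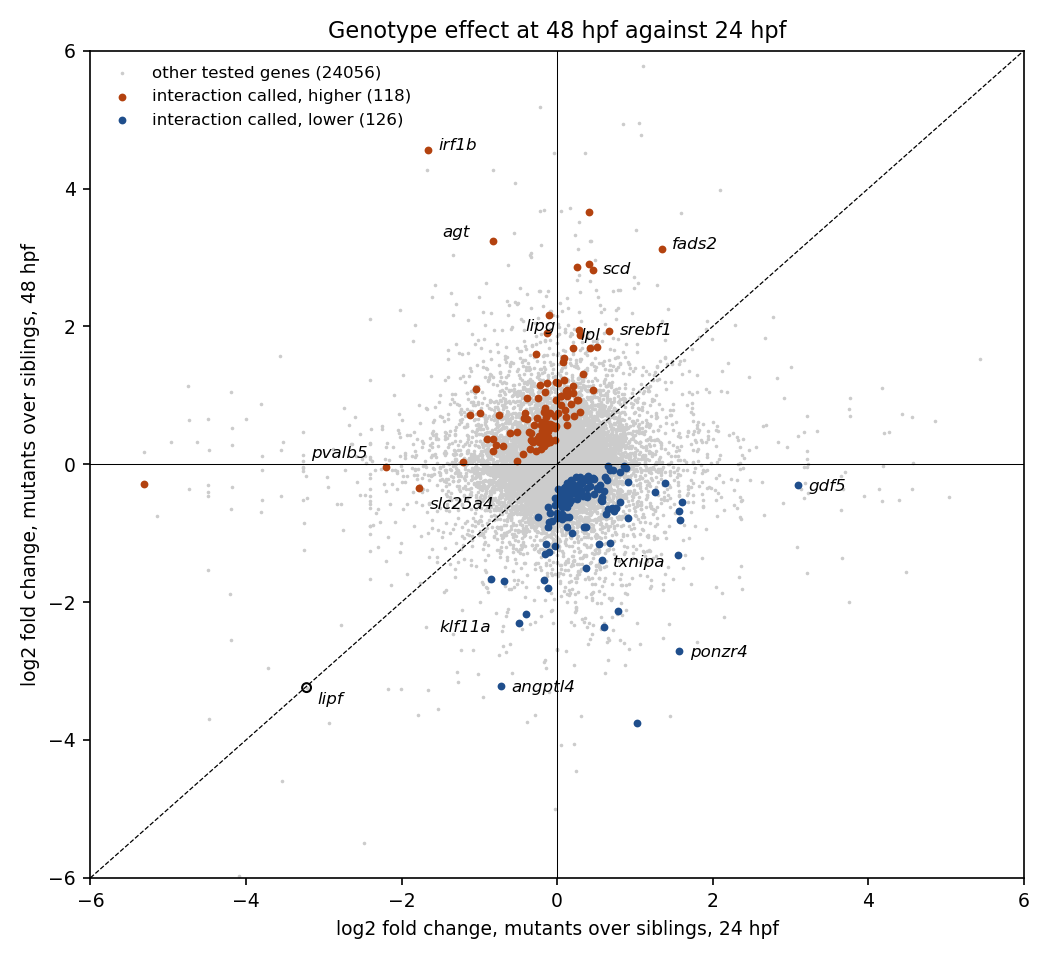
Difference between mutants and siblings at 48 hpf (vertical axis, log2 fold change) against that at 24 hpf (horizontal axis, log2 fold change) for each tested gene, with the 118 higher genes in red and the 126 lower in blue; 8 uncalled genes lie outside the axes. Most called genes spread along the vertical axis, and lipf (open circle) lies on the dashed line of equal effects at -3.22 and -3.24.

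Lipases of the vessel wall gained in mutants. The lipoprotein lipase gene lpl, whose product releases fatty acids from triglyceride-rich lipoproteins, stood at 87.6, 89.2, 78.0 and 96.0 CPM in sib24 and 85.0, 108, 104 and 105 in mut24. At 48 hpf it stood at 39.1, 45.8, 45.2 and 46.2 CPM in sib48 and at 131, 166, 138 and 132 in mut48. The genotypes overlapped at 24 hpf and were far apart at 48 hpf, and lpl fell 1.99-fold with age in siblings and rose 1.41-fold in mutants (interaction 1.49, SE 0.14, edgeR adjusted p = 1.81e-05). The endothelial lipase gene lipg, whose product cuts lipoprotein phospholipids, behaved in the same way. It measured 32.5, 32.4, 28.8 and 27.9 CPM in sib24, 33.2, 40.6, 35.8 and 39.2 in mut24, 23.2, 27.2, 24.7 and 26.4 in sib48, and 93.1, 96.0, 96.6 and 85.2 in mut48. Every mutant library lay above every sibling library at both ages, by far more at the later one (interaction 1.58, SE 0.12, edgeR adjusted p = 1.21e-06). The interactions without the 4 libraries low in yolk markers were 1.56 for lpl (edgeR adjusted p = 0.00149) and 1.75 for lipg (edgeR adjusted p = 3.13e-05).

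An inhibitor of the same lipases moved the other way. The gene angptl4, a Ppar target whose product inactivates lipoprotein lipase, stood at 30.9, 38.8, 32.0 and 33.2 CPM in sib24 and 32.6, 13.3, 19.6 and 16.6 in mut24. It stood at 62.6, 56.9, 56.0 and 59.11 CPM in sib48 and 5.21, 6.73, 8.87 and 4.42 in mut48. Only at 48 hpf did the groups not overlap. The transcript rose 1.74-fold with age in siblings and fell 3.24-fold in mutants (interaction -2.49, SE 0.32, edgeR adjusted p = 0.000836), which is 1 of the 6 most negative values among called genes with a symbol and at least 1 CPM in the highest group. The transporter gene mfsd2aa, which was chosen after its values were seen and whose mammalian counterpart carries lysophosphatidylcholine with omega-3 fatty acids into brain, was level with age in siblings (log2 0.03) and rose by log2 1.43 in mutants. Its levels ran from 4.96 to 7.84 CPM over sib24, mut24 and sib48 and were 14.6, 16.9, 24.2 and 17.9 in mut48 (interaction 1.40, edgeR adjusted p = 0.0101).

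Genes of fatty acid synthesis included the regulator srebf1 and the desaturase gene fads2, whose excess in mutants grew with age, although most of the list did not pass. The list of fatty acid and triglyceride synthesis had 34 tested genes, of which 4 were higher (srebf1, fads2, scd and acsl3b) and 1 lower (elovl4b, an elongase of very long chain fatty acids), with a median interaction of -0.01. Levels of srebf1 were 71.2, 76.3, 67.6 and 73.2 CPM in sib24 and 92.7, 117, 122 and 126 in mut24. At 48 hpf they were 92.9, 84.2, 92.3 and 84.3 CPM in sib48 and 259, 320.3, 399.7 and 373 in mut48. The mutants were above the siblings at both ages, 1.59-fold and then 3.82-fold (interaction 1.27, SE 0.16, edgeR adjusted p = 0.000836). The fatty acid desaturase gene fads2, which acts in the synthesis of polyunsaturated fatty acids, rose from 0.726 to 1.01 CPM in sib24 to 2.34 to 3.49 in sib48, and from 1.75 to 2.78 in mut24 to 19.2, 30.6, 32.3 and 19.6 in mut48. Here too both ages were apart, 2.55-fold and 8.67-fold (interaction 1.77, SE 0.31, edgeR adjusted p = 0.0134).

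The stearoyl-CoA desaturase gene scd, which makes monounsaturated fatty acids, overlapped at 24 hpf and not at 48 hpf. It measured 2.304, 1.04, 2.25 and 2.02 CPM in sib24, 1.58, 3.30, 2.85 and 2.72 in mut24, 1.40, 1.17, 1.60 and 2.54 in sib48, and 4.16, 11.4, 17.6 and 14.02 in mut48. The lowest mut48 library was replicate 1 (interaction 2.36, SE 0.53, edgeR adjusted p = 0.0434). The call of scd was lost in 13 of the 16 fits without 1 library, all but those without sib24 replicate 2, sib48 replicate 4 or mut48 replicate 1, with adjusted p up to 0.0913. Without the 4 libraries low in yolk markers, srebf1 alone of these 5 was still called, and the list had 1 higher and 1 lower gene. The list had 2 higher genes without sib24 replicate 1 or 4, mut24 replicate 1 or sib48 replicate 2 or 3. Among 17 acyl-CoA synthetase genes, a list made after values were seen, 3 were higher: acsl3b, acsl4a and acsbg2, which activate free fatty acids. By sign, 11 of the 17 were negative, against 53.8% of all tested genes, and the median was -0.14. Of the 3, acsbg2 had mutants above siblings at both ages (94.4 to 109.9 CPM in sib24, 122 to 153 in mut24, 108 to 116 in sib48 and 217 to 263 in mut48) and an interaction of 0.61 (edgeR adjusted p = 0.0135). The count for this list was 1 without sib24 replicate 1 or 2, mut24 replicate 1 or sib48 replicate 2 or 3. Of the 16 fits without 1 library, only that without mut48 replicate 1 gave 3.

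Sterol synthesis genes gave no interaction call. Of 31 tested, 0 were called by edgeR, and the median was 0.07. The member with the smallest p was insig1, the sterol sensor that holds Srebf proteins back, at 0.60 (SE 0.21, edgeR adjusted p = 0.154). It was higher in mutants at both ages, from 22.4 to 28.7 CPM in sib24 against 31.1 to 49.5 in mut24, and from 38.7 to 42.0 in sib48 against 76.0 to 126 in mut48.

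A group of fatty acid oxidation genes lost ground in mutants with age. Of 47 tested genes of oxidation and Ppar targets, 0 were higher and 5 lower, with a median interaction of -0.35, and 32 of the 47 were negative against 53.8% of all tested genes. The 5 were angptl4, hadhaa and hadhab (subunits of the mitochondrial trifunctional protein), acadl (long-chain acyl-CoA dehydrogenase) and pdk4 (a kinase that switches off pyruvate oxidation). For hadhaa the levels were 29.7, 28.5, 35.4 and 29.7 CPM in sib24 and 23.8, 16.3, 19.5 and 17.5 in mut24, then 27.6, 37.7, 27.8 and 32.0 in sib48 and 10.201, 10.5, 10.308 and 7.52 in mut48. Mutants lay below siblings at both ages, and the transcript was level with age in siblings and fell 2.00-fold in mutants (interaction -1.02, SE 0.19, edgeR adjusted p = 0.0195). In contrast acadl rose with age in both genotypes, 2.79-fold in siblings (11.4 to 14.9 CPM in sib24 and 34.1 to 40.5 in sib48) and 1.67-fold in mutants (10.9 to 13.8 CPM in mut24 and 20.0 to 21.5 in mut48). The genotypes overlapped at 24 hpf and were apart at 48 hpf (interaction -0.74, edgeR adjusted p = 0.0206, and 0.0524 without sib48 replicate 2). The count of lower genes was 2 without sib48 replicate 2, 9 without mut48 replicate 1, 3 with no filter and 4 without the 4 libraries low in yolk markers. The calls of hadhaa and pdk4 were lost without those 4, at -1.08 and -0.78 (edgeR adjusted p = 0.0602 and 0.0903).

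A pair of genes tied to glucose use were also lower. The gene ppp1r3b, which encodes the subunit that brings protein phosphatase 1 to glycogen and is 1 of 27 glycogen genes tested (median -0.15), was the only one of that list called. It fell with age in both genotypes, from 51.1, 64.4, 44.8 and 52.6 CPM in sib24 to 19.0, 21.9, 21.8 and 20.7 in sib48, and from 47.7, 49.0, 48.1 and 51.2 in mut24 to 5.90, 5.89, 5.16 and 7.08 in mut48. The genotypes overlapped at 24 hpf and parted at 48 hpf, with falls of 2.55-fold and 8.16-fold (interaction -1.68, SE 0.15, edgeR adjusted p = 1.81e-05). The gene txnipa, an arrestin-family inhibitor of glucose uptake in mammals, turned round. It was higher in mutants at 24 hpf (157, 175, 140.3 and 142 CPM in sib24 against 252, 223, 239.7 and 204 in mut24) and lower at 48 hpf (247, 225, 245 and 236 in sib48 against 79.4, 129, 70.9 and 83.6 in mut48). No library crossed over at either age, although the difference at 24 hpf was not called (interaction -1.97, SE 0.20, edgeR adjusted p = 4.75e-05; at 24 hpf alone log2 0.58, edgeR adjusted p = 0.0561).

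Among 22 Krueppel-like factor genes, a list made after values were seen, 3 were lower and 0 higher (median -0.08): klf11a, klf11b and klf5a. The transcription factor gene klf11a rose 8.34-fold with age in siblings, from 5.43, 7.51, 7.95 and 4.68 CPM to 60.0, 50.9, 49.1 and 53.5, and 2.38-fold in mutants, from 5.03, 4.46, 4.21 and 4.47 CPM to 6.95, 7.66, 12.6 and 15.998 (interaction -1.81, SE 0.31, edgeR adjusted p = 0.0117). Its paralog klf11b rose from 7.08 to 9.33 CPM in sib24 to 16.4 to 18.1 in sib48 and fell in mutants from 5.42 to 8.25 CPM to 3.22 to 4.39 (interaction -1.78, edgeR adjusted p = 0.000262). Both had overlapping genotypes at 24 hpf and separate ones at 48 hpf. When the 4 libraries low in yolk markers were left out, klf11b alone of the 3 was still called, and klf11a was at -1.51 (edgeR adjusted p = 0.0977).

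**Figure D2:**
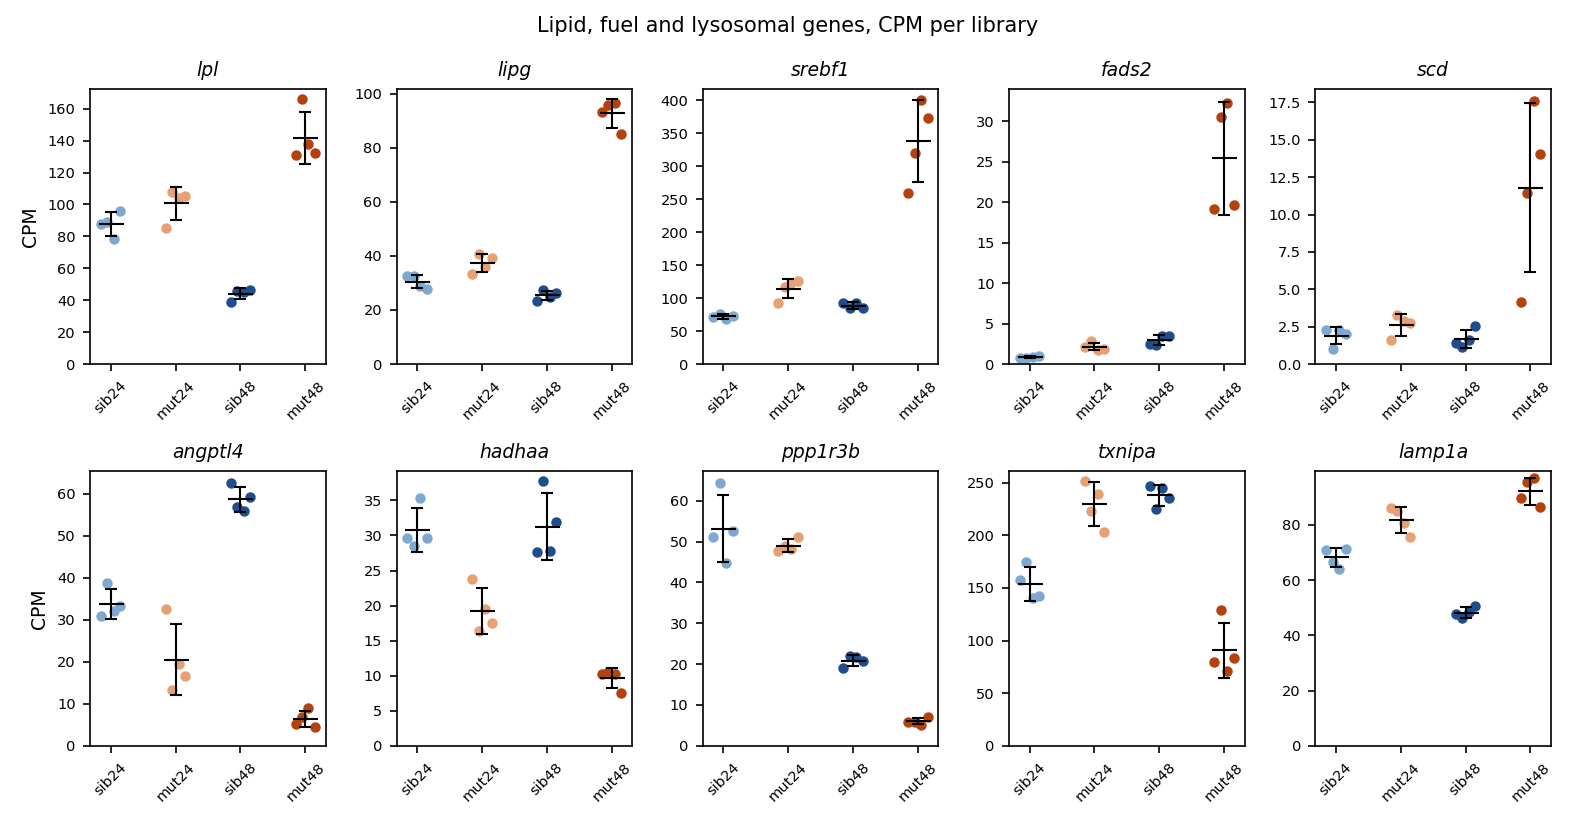
CPM (vertical axes, linear, from 0) of 10 genes in each of the 16 libraries by group; points are libraries, the wide line is the group mean and bars are the SD (n = 4). In lpl, lipg, srebf1, fads2 and scd the mut48 libraries stand above all others, and in angptl4, hadhaa, ppp1r3b and txnipa below all others.

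A few lysosomal genes also gained in mutants. Of 74 tested lysosomal genes 4 were higher and 0 lower, with a median interaction of 0.20, and 53 of the 74 were positive against 46.2% of all tested genes. The called genes were lamp1a (a membrane glycoprotein), the peptidase genes tpp1 and lgmn and the cathepsin gene ctsz. For lamp1a the levels were 71.0, 66.6, 64.1 and 71.1 CPM in sib24, 86.0, 85.0, 80.5 and 75.5 in mut24, 47.6, 46.4, 48.3 and 50.7 in sib48, and 89.6, 95.4, 97.1 and 86.6 in mut48. It fell with age in siblings and rose slightly in mutants, which lay above siblings in every library of both ages (interaction 0.67, SE 0.09, edgeR adjusted p = 0.00138). The pattern of tpp1 was alike, from 32.7 to 37.6 CPM in sib24 and 40.2 to 45.8 in mut24 to 24.8 to 30.1 in sib48 and 48.1 to 57.5 in mut48 (interaction 0.66, edgeR adjusted p = 0.011). The count was 8 with RLE or upper-quartile scaling or no filter, 13 with DESeq2, 2 without mut24 replicate 2 or 3 or sib48 replicate 2, 7 without mut24 replicate 1, and 3 without the 4 libraries low in yolk markers.

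Of 40 autophagy and Tfeb-family genes 2 were higher and 0 lower (median 0.20), against 0.486% higher among all tested genes. By sign, 27 of the 40 were positive, against 46.2% of all tested genes. The autophagosome gene map1lc3b was lower in mutants at 24 hpf (94.9 to 96.6 CPM in sib24 against 81.2 to 89.98 in mut24) and higher at 48 hpf (115 to 136 against 142 to 160.5), with no overlap at either age. The difference at 24 hpf was not called (log2 -0.17, edgeR adjusted p = 0.239). The interaction of map1lc3b, 0.44 (SE 0.09, edgeR adjusted p = 0.0284), lost its call in 9 of the 16 fits without 1 library, with adjusted p up to 0.0673. The factor gene tfe3a had an interaction of 0.81 (edgeR adjusted p = 0.0434). Its call was lost in 12 of the 16 fits.

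Stress genes were called in both directions. Of 45 genes of the amino acid and integrated stress response 2 were higher and 0 lower (median 0.06), against 0.486% higher among all tested genes. The first was ddit3, the transcription factor gene also called Chop. It stood at 6.89, 9.79, 11.2 and 7.35 CPM in sib24, 6.61, 7.97, 9.32 and 8.30 in mut24, 19.2, 19.6, 15.3 and 14.9 in sib48, and 37.4, 45.9, 112 and 63.5 in mut48. The genotypes overlapped at 24 hpf and not at 48 hpf, where mut48 replicate 3 was highest (interaction 2.04, SE 0.37, edgeR adjusted p = 0.0151). The second, atf5a, had an interaction of 0.93 (edgeR adjusted p = 0.0251), which lost the call without sib24 replicate 2, mut24 replicate 2 or 3 or sib48 replicate 2. Outside the lists and chosen after its values were seen, crebrf, a regulator tied to the unfolded protein response and to fat storage in mammals, was 11.7 to 17.9 CPM in the 12 libraries of the other groups and 33.4, 37.1, 48.2 and 43.7 in mut48 (interaction 1.44, edgeR adjusted p = 0.00442).

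Genes of protein folding in the endoplasmic reticulum leaned the other way. Of 33 genes 2 were lower (dnajc3a and p4hb) and 0 higher, and the median was -0.38. By sign, 29 of the 33 were negative, against 53.8% of all tested genes. The co-chaperone gene dnajc3a was higher in mutants at 24 hpf (12.8, 10.1, 11.4 and 11.2 CPM in sib24 against 20.0, 16.4, 15.8 and 15.1 in mut24) and lower at 48 hpf (15.5, 21.3, 15.5 and 18.9 in sib48 against 11.3, 13.5, 13.0 and 12.02 in mut48). Neither age showed overlap, and both differences were called (interaction -1.08, SE 0.18, edgeR adjusted p = 0.00906). Among 28 cytosolic heat shock genes (median -0.24) hsp90aa1.2, a cytosolic Hsp90 gene, was the 1 called. It stood at 43.0 to 49.3 CPM in sib24 and 135, 129, 104 and 99.95 in mut24 and overlapped at 48 hpf (36.7 to 71.7 in sib48 and 32.1 to 58.2 in mut48; interaction -1.65, SE 0.28, edgeR adjusted p = 0.0101). After the 4 libraries low in yolk markers were left out it was at -1.68 (edgeR adjusted p = 0.0577).

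Some readouts of embryonic signalling pathways were higher in mutants at 48 hpf. These lists were put together after values were seen, and their counts describe the called genes only. Of 27 Hedgehog pathway genes described 5 were higher and 0 lower, with a median of 0.22. They were gli1 and hhip, direct targets of the pathway, and the ventral neural tube factors nkx2.2a, nkx2.9 and nkx6.2.

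For gli1, a transcription factor that carries the Hedgehog signal, the levels were 78.3, 78.0, 78.9 and 76.7 CPM in sib24 and 58.9, 63.0, 65.0 and 73.9 in mut24. At 48 hpf they were 28.8, 29.3, 32.1 and 27.0 in sib48 and 34.7, 36.7, 41.7 and 38.5 in mut48. The order of the genotypes turned with no overlap at either age, although the difference at 24 hpf was not called (interaction 0.63, edgeR adjusted p = 0.0126). The inhibitor gene hhip overlapped at 24 hpf (91.5 to 97.2 CPM in sib24 and 79.1 to 98.3 in mut24) and was higher in mut48 (98.3 to 123) than in sib48 (73.8 to 77.0) (interaction 0.68, edgeR adjusted p = 0.00576). The count was 3 without mut24 replicate 2 and 2 without the 4 libraries low in yolk markers, in which hhip and gli1 were still called.

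Of 28 Notch ligand and neurogenic factor genes 7 were higher and 0 lower (median 0.24): the Delta ligand genes dla, dlb and dlc, the neuroendocrine factors insm1a and insm1b, hes2.2 and the neuronal gene repressor rest. The ligand gene dla was level with age in siblings (169.8, 159.6, 155 and 164 CPM in sib24 and 151, 151, 157 and 149 in sib48) and rose 1.44-fold in mutants (146, 143, 153 and 164 CPM in mut24 and 227, 239.7, 218 and 191 in mut48). Mutants and siblings overlapped at 24 hpf and not at 48 hpf (interaction 0.62, SE 0.10, edgeR adjusted p = 0.00609). This list depended on single libraries: dla was the 1 gene called without mut24 replicate 1 or 2, without sib48 replicate 2, and without the 4 libraries low in yolk markers. Fits without 1 library gave at most 6 higher genes, so none of them reached the 7. Without mut48 replicate 1 the list also had 1 lower gene.

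Among 19 readouts of Fgf signalling 3 were higher and 0 lower (median 0.19). The phosphatase gene dusp6, which is induced by Fgf and restrains Erk, fell 1.57-fold with age in siblings (133 to 145 CPM in sib24 and 83.0 to 93.0 in sib48) and was level in mutants (123 to 149 in mut24 and 118 to 143 in mut48; interaction 0.57, edgeR adjusted p = 0.018). The Fgf-binding protein gene fgfbp1b fell 1.60-fold in siblings and rose 1.40-fold in mutants, from 20.6 to 23.2 CPM in mut24 to 28.6 to 33.7 in mut48, against 11.9 to 15.1 in sib48 (interaction 1.17, SE 0.13, edgeR adjusted p = 0.000214). It was the 1 gene of the list called without the 4 libraries low in yolk markers. The growth factor gene vegfaa, chosen after its values were seen, ran from 13.0 to 14.3 CPM in sib48 and 18.4 to 23.5 in mut48 and overlapped at 24 hpf (interaction 0.88, edgeR adjusted p = 0.018).

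Several epidermal genes lost ground in mutants between 24 and 48 hpf. Of 50 tested genes of epidermis, periderm and ionocytes 1 was higher and 5 were lower, and the median was -0.35. By sign, 37 of the 50 were negative, against 53.8% of all tested genes. The lower genes were krt5 and krt94 (keratins), anxa1b (an annexin of skin), and agr1 and agr2 (protein disulfide isomerase relatives of secretory cells). Keratin genes have close paralogs, and the sources used here do not say how shared reads were counted. The keratin gene krt5 stood at 1336, 2188, 2225 and 1848 CPM in sib24 and 4091, 3612, 3015 and 3277 in mut24. At 48 hpf it stood at 1949.8, 1649, 1772 and 1621 in sib48 and 1613, 1604, 1680.2 and 1866 in mut48. The genotypes were apart at 24 hpf by 1.84-fold and overlapped at 48 hpf (interaction -0.93, SE 0.18, edgeR adjusted p = 0.0232).

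For anxa1b the order turned: 64.8, 106, 122 and 69.3 CPM in sib24 lay below 188, 140.3, 158 and 146 in mut24, and 199, 179, 178 and 162 in sib48 lay above 110.3, 104, 140.5 and 138 in mut48 (interaction -1.35, SE 0.24, edgeR adjusted p = 0.0134). Its difference at 48 hpf was not called (log2 -0.54, edgeR adjusted p = 0.0578). Within sib24 the lowest values of anxa1b and of agr1 were those of replicates 1 and 4, which were also low in yolk syncytial layer markers, and the part of that in the result was not tested. In the fit without the 4 libraries low in those markers anxa1b and agr1 were still called, at -1.09 and -1.099 (edgeR adjusted p = 0.0205 and 0.0291), and krt5 was not, at -0.68 (edgeR adjusted p = 0.0794). The 1 higher gene was krt18b, a simple-epithelium keratin, which overlapped at 24 hpf (51.2 to 55.0 CPM in sib24 and 40.7 to 53.2 in mut24) and was higher in mut48 (137 to 171) than in sib48 (86.2 to 111) (interaction 0.76, edgeR adjusted p = 0.011). With upper-quartile scaling 3 genes of the list were lower. The count was 3 to 6 in fits without 1 library.

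**Figure D3:**
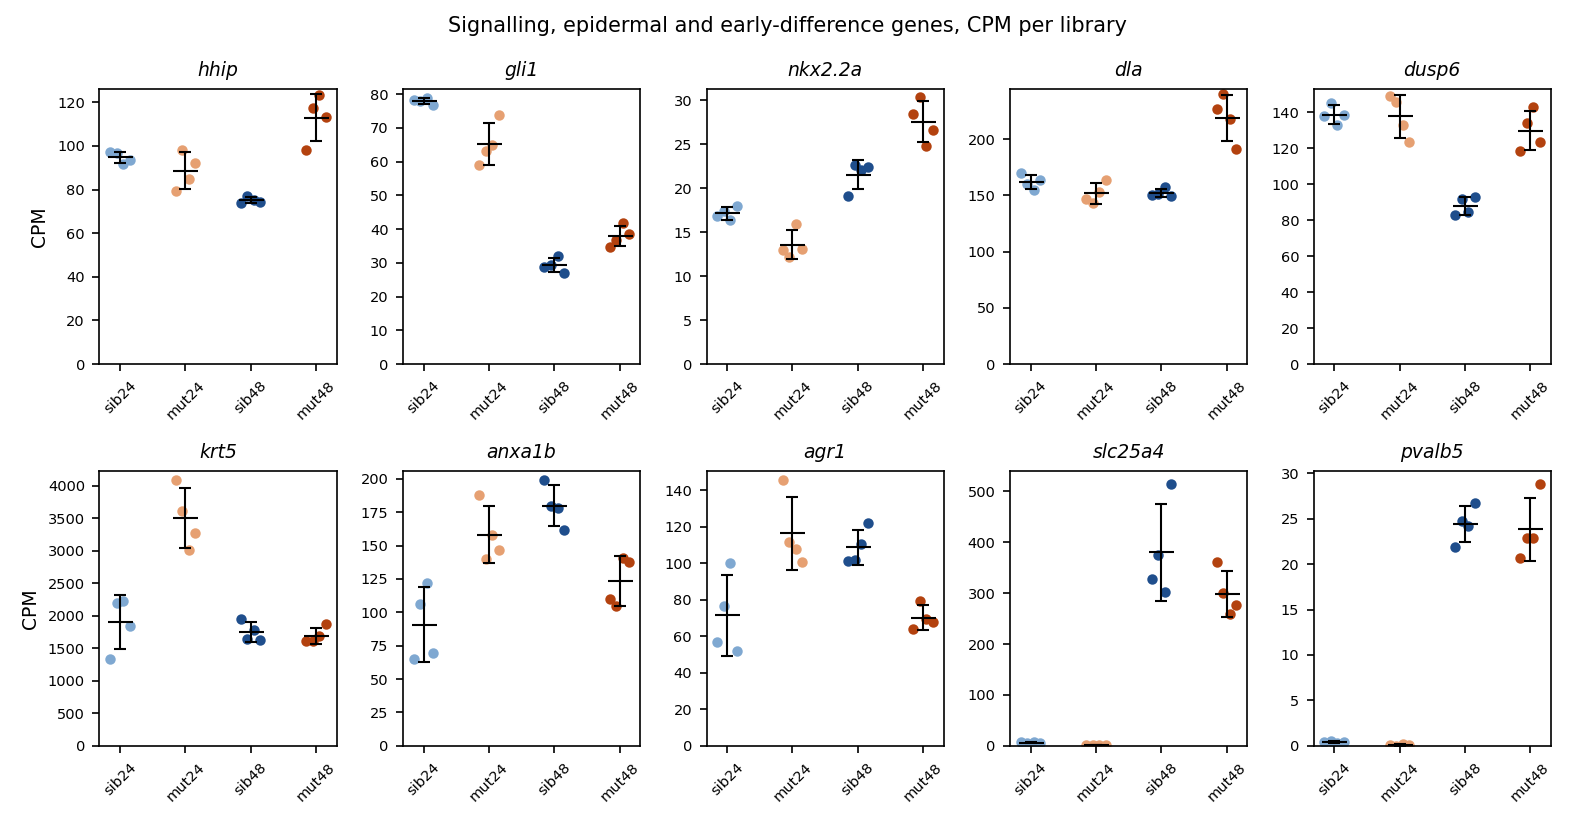
CPM (vertical axes, linear, from 0) of 10 signalling, epidermal and other genes in each of the 16 libraries by group; points are libraries, the wide line is the group mean and bars are the SD (n = 4). The order of mut and sib turns between ages in gli1, nkx2.2a, anxa1b and agr1, while krt5, slc25a4 and pvalb5 are apart at 24 hpf and overlap at 48 hpf.

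Some genes were apart at 24 hpf and converged. The mitochondrial ADP/ATP carrier gene slc25a4, a muscle form in mammals, stood at 7.15, 6.17, 6.75 and 5.46 CPM in sib24 and 1.93, 1.31, 1.75 and 2.399 in mut24. By 48 hpf it had risen to 327, 376, 302 and 515 CPM in siblings and 362, 300.0, 259 and 276 in mutants, which overlapped (interaction 1.43, SE 0.25, edgeR adjusted p = 0.0126). The parvalbumin gene pvalb5, a calcium buffer of muscle, rose from 63 reads over the 4 libraries of sib24 and 14 over those of mut24 to 21.9 to 26.8 CPM in sib48 and 20.7 to 28.9 in mut48. Its interaction of 2.17 (SE 0.44, edgeR adjusted p = 0.0264) lost the call without sib24 replicate 1 or 2, mut24 replicate 4 or sib48 replicate 2. The Bmp-family ligand gene gdf5, which acts in joints and cartilage, had 4 reads over sib24 and 40 over mut24 and reached 4.98 to 7.60 CPM in sib48 and 4.35 to 6.7997 in mut48 (interaction -3.40, SE 0.61, edgeR adjusted p = 0.0142), so its value rests on few reads at the earlier age.

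A few clock and light-response genes were among those that converged. Of 37 circadian genes 2 (tefa and cry1ab) were higher and 0 lower, against 0.486% higher among all tested genes. The median interaction of the list was 0.37. At 24 hpf 3 of the 37 were called lower and 0 higher in mutants. The clock output factor tefa was 118, 119, 132 and 115 CPM in sib24 and 75.0, 76.5, 71.5 and 76.7 in mut24, and overlapped at 67.2, 75.1, 63.9 and 66.7 in sib48 and 60.7, 71.1, 83.2 and 113 in mut48 (interaction 0.96, SE 0.19, edgeR adjusted p = 0.0214). The photolyase-family gene cry-dash, chosen after its values were seen, likewise ran from 22.1 to 26.4 CPM in sib24 against 11.6 to 13.6 in mut24 and overlapped at 48 hpf (interaction 1.27, edgeR adjusted p = 0.0176). In tefa and cry-dash mut48 replicates 3 and 4 were the highest of the 48 hpf libraries. The genotypes also overlapped at 48 hpf for cry1ab, with an interaction of 1.07 (edgeR adjusted p = 0.045).

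For 5 of the 244 genes the genotype difference was called at both ages in opposite directions, among them dnajc3a above, mhc1zca, si:ch211-57n23.4 and an unnamed gene with the Ensembl identifier ENSDARG00000068947. The class I histocompatibility gene mhc1zca was lower in mutants at 24 hpf (4.53 to 5.23 CPM in sib24 against 1.93 to 2.94 in mut24) and higher at 48 hpf (3.13 to 4.41 against 5.74 to 7.41; interaction 1.73, SE 0.23, edgeR adjusted p = 0.00133). Its family has close copies, so this value is uncertain. The gene ENSDARG00000068947 went from higher to lower in mutants (interaction -1.70, edgeR adjusted p = 0.00298) and si:ch211-57n23.4 from lower to higher (interaction 2.14, edgeR adjusted p = 0.00698). The smallest p of all belonged to another unnamed gene, si:ch211-117k10.3, at 17.0 to 19.8 CPM in sib24, 21.0 to 28.5 in mut24, 6.54 to 8.95 in sib48 and 52.9 to 64.5 in mut48 (interaction 2.498, SE 0.16, edgeR adjusted p = 2.81e-07).

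The largest interactions by size belonged to genes of few reads at 1 or more ages. The angiotensinogen gene agt, precursor of the angiotensin peptides, stood at 0.212 to 0.486 CPM in sib24, 0.157 to 0.257 in mut24, 1.65, 3.60, 1.33 and 0.650 in sib48 and 15.1, 17.7, 17.4 and 18.4 in mut48. It rose 4.76-fold with age in siblings and 79.9-fold in mutants (interaction 4.07, SE 0.59, edgeR adjusted p = 0.00332). The interferon regulatory factor gene irf1b measured 2.49, 1.503, 0.972 and 1.65 CPM in sib24, 0.410, 0.944, 0.359 and 0.383 in mut24, 0.145, 0.678, 0.466 and 0.162 in sib48 and 1.098, 2.13, 29.8 and 1.86 in mut48. Although mut48 lay above sib48 in every library, replicate 3 stood far above the rest, and the interaction of 6.22 (SE 1.27, edgeR adjusted p = 0.0273) was 3.86 without it. The call was lost without any of 7 other libraries (sib24 replicate 1, mut24 replicates 1, 3 and 4, and sib48 replicates 2, 3 and 4), with adjusted p up to 0.0637.

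Of 34 interferon and complement genes, irf1b and irf9 were the 2 called, both higher, with a median interaction of 0.58 and a median SE of 1.02 over the list. For irf9 mutants lay below siblings at 24 hpf, at 2.84 to 5.65 CPM in mut24 against 7.49 to 10.4 in sib24. At 48 hpf the genotypes of irf9 overlapped, and mut48 stood at 5.15, 7.23, 15.6 and 6.89 CPM, with replicate 3 highest. The genotype difference of irf9 was called at neither age (edgeR adjusted p = 0.0769 at 24 hpf and 0.143 at 48 hpf). The remaining genes named for size were ARF5 (1 of many) at 3.24 and sdr42e2 at 2.61, both low until mut48, and ponzr4 at -4.28 and jac10 at -2.39, both rising less in mutants. For ponzr4 the levels were 20.2 to 32.2 CPM in sib48 and 1.90 to 6.43 in mut48, after 24 reads in sib24 and 75 in mut24 (edgeR adjusted p = 0.00451). ARF5 and ponzr4 belong to families of near-identical genes, and their values are uncertain. The call of jac10 was lost in 13 and that of sdr42e2 in 14 of the 16 fits without 1 library (edgeR adjusted p up to 0.0933 and 0.114). That of ARF5 (1 of many) was lost without sib24 replicate 3 or sib48 replicate 3.

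Genes of yolk lipid export had wide errors in this contrast. Of 27 yolk syncytial layer genes 0 were called and 20 were negative, against 53.8% negative among all tested genes. Their median interaction was -0.52 and their median SE 0.94, against a median SE of 0.24 over all tested genes. Of 40 lipoprotein genes lpl and lipg were the 2 called, the median interaction was -0.22 and the median SE 0.64. The apolipoprotein B gene apobb.1 is an example: it stood at 179, 849, 1604 and 36.3 CPM in sib24 and 1714, 31.2, 1198 and 21.6 in mut24, against 615 to 875 in mut48 and 784 to 1439.8 in sib48. The spread within each 24 hpf group exceeded any difference between genotypes (interaction -0.69, SE 1.44, edgeR adjusted p = 0.868). The apolipoprotein gene apoa4b.2 was 12.2 to 36.6 CPM in sib48 and 0.136 to 0.508 in mut48 and had an interaction of -5.005 (SE 1.94, edgeR adjusted p = 0.208), and its 24 hpf libraries ran from 0.319 to 74.3 CPM in siblings and from 0 to 32.9 in mutants. In edgeR 1 yolk syncytial layer gene was called, lower, without the 4 libraries low in these markers. Those libraries were picked by the mean of these same genes, so that call is no separate result about them.

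The title of the series names Hnf4. Its gene hnf4a was at 1.32 to 2.502 CPM in sib24, 1.65 to 4.36 in mut24, 1.89 to 6.51 in sib48 and 5.14 to 6.98 in mut48, and the genotypes overlapped at both ages (interaction -0.01, SE 0.48, edgeR adjusted p = 0.996). Of 30 genes of hepatic transcription factors (median 0.10) 1 was called, against 1.00% of all tested genes. It was the retinoid X receptor gene rxraa, a partner of many nuclear receptors. All mut24 libraries (34.7 to 36.3 CPM) lay below sib24 (36.6 to 43.3), and all of mut48 (24.2 to 28.1) above sib48 (19.4 to 22.3) (interaction 0.51, SE 0.10, edgeR adjusted p = 0.0276). The difference at 24 hpf was not called (log2 -0.16, edgeR adjusted p = 0.334). The interaction call of rxraa was lost in 8 of the 16 fits without 1 library and without the 4 libraries low in yolk markers.

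Phospholipid genes gave 2 lower calls among 51 tested (median -0.17). For this list and the next ones, the shares over all tested genes were 0.486% higher and 0.519% lower. The choline phosphotransferase gene chpt1, of phosphatidylcholine synthesis, overlapped at 24 hpf and fell 1.54-fold with age in siblings (37.1 to 43.9 CPM in sib48) and 2.498-fold in mutants (27.7 to 30.9 in mut48; interaction -0.70, SE 0.12, edgeR adjusted p = 0.0134). The lysophosphatidylinositol acyltransferase gene mboat7 had an interaction of -0.76 (edgeR adjusted p = 0.0228) and lost its call without sib24 replicate 1 or sib48 replicate 2. Among 12 hatching gland genes (median -0.15) cap1 and agr2 were lower, and they lost the call in 10 and 12 of the 16 fits without 1 library. Of 32 endothelial genes (median 0.18) the clathrin adaptor gene dab2 (0.58, edgeR adjusted p = 0.0228) and the scavenger receptor gene mrc1a (0.83, edgeR adjusted p = 0.0228) were higher. The call of dab2 was lost without sib24 replicate 1, mut24 replicate 3 or sib48 replicate 3, and that of mrc1a without sib24 replicate 1 or sib48 replicate 2.

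Single calls stood in skeletal muscle (trim63b, a ubiquitin ligase of muscle, at 1.04), pigment cells (tyrp1a, a melanin enzyme, at 0.65) and erythroid cells (cpox, of haem synthesis, at -0.79). Of the 40 lists in all, 20 had no called member, among them the vacuolar proton pump, glycolysis, the respiratory chain, the cell cycle, neurons, lens, retina, heart, cartilage and matrix, and liver genes. Their precision differed: the median SE was 0.14 for the cell cycle, 0.49 for lens, 0.54 for heart and 1.25 for liver genes. Over all tested genes it was 0.24, so in the wide lists the lack of a call does not show a lack of change. Besides the endoplasmic reticulum folding genes, 3 lists with few calls were almost wholly negative, against 53.8% negative among all tested genes. They were 42 of 46 ribosome biogenesis genes (median -0.29, with ddx21 called higher), 40 of 42 nuclear respiratory chain genes (median -0.19, with 0 called by edgeR) and 12 of 12 mitochondrially encoded genes (median -0.18, with 0 called by edgeR). Members of such lists share libraries and are not independent, and upper-quartile scaling moved the median of all genes from -0.03 to 0.01.

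**Figure D4:**
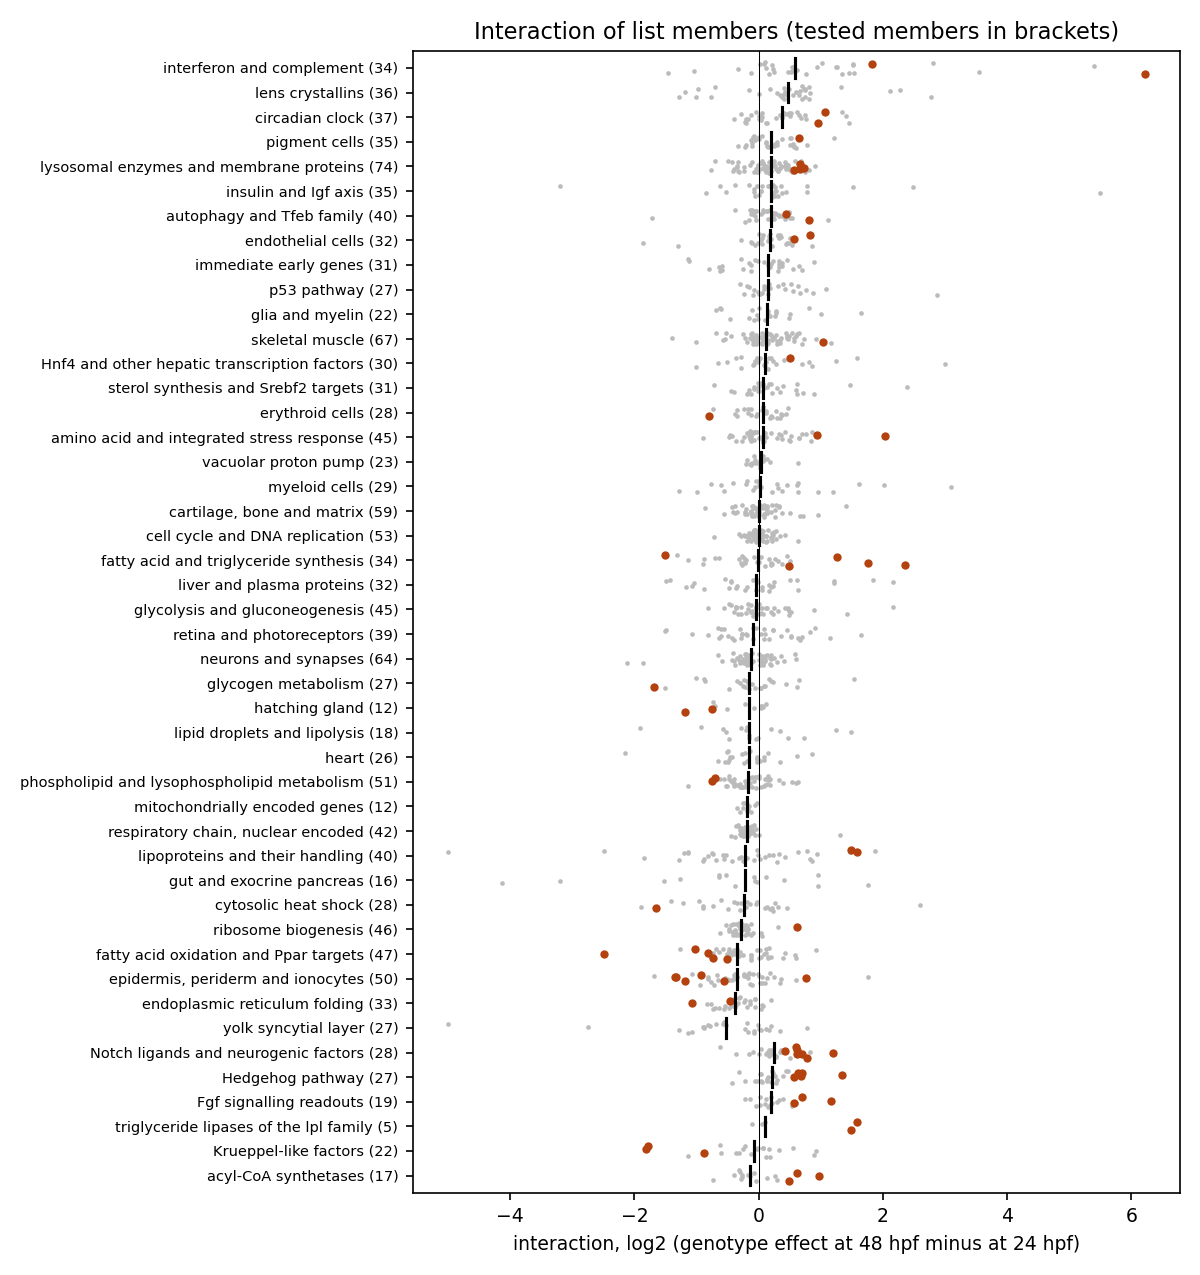
Interaction (horizontal axis, log2) of each tested member of the 40 gene lists and of the 6 lists added after values were seen (bottom), with called members in red and a bar at each list's median. Called members lie on both sides of 0, and the yolk syncytial layer has the lowest median at -0.52 with no called member.

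Seen as development, the change with age of the called genes was more often larger in size in mutants than smaller. Change with age was the rule in this series: 63.3% of tested genes were called between ages in siblings (34.1% higher and 29.2% lower at 48 hpf), 64.4% in mutants (34.1% and 30.4%) and 73.0% for the mean of both (38.7% and 34.2%). Of the 244 genes, 213 were called for the mean change with age, a contrast that does not use the difference between genotypes. Among these the change with age was larger in size in mutants than in siblings for 148 (the mean change was a rise for 63 and a fall for 85) and smaller for 65 (a mean rise for 30 and a mean fall for 35). Genes that moved in opposite directions in the 2 genotypes are counted here by size, with angptl4 and txnipa among the 148 and lpl among the 65. The counts were 127 and 67 with RLE scaling, 123 and 68 with upper-quartile scaling, and 61 and 22 without the 4 libraries low in yolk markers. In fits without 1 library they ran from 37 to 221 and from 31 to 90. The same sorting was not counted over all tested genes, of which 53.8% had a negative interaction. These counts therefore describe the called genes alone.

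For 21 genes the change with age was called as a fall in siblings and a rise in mutants, and for 8 genes as a rise in siblings and a fall in mutants. Besides lpl, lipg, lamp1a, tpp1, hhip and fgfbp1b, the 21 held mknk2b, a kinase gene of translation initiation. It fell from 87.9, 104, 108 and 91.2 CPM in sib24 to 77.6, 82.1, 71.6 and 74.7 in sib48 and rose from 95.4, 106, 102 and 113 CPM in mut24 to 143, 175, 240.2 and 155 in mut48 (interaction 1.13, edgeR adjusted p = 0.00576). The 8 included angptl4, txnipa, klf11b, agr1 and dnajc3a. Another 55 genes were called with age in mutants only and 28 in siblings only. Calling genes on unequal change with age favours such opposite calls and calls in a single genotype. These counts were not made over all tested genes and describe the called genes alone. The threonine dehydrogenase gene tdh, chosen after its values were seen, was called in mutants only, at 105 to 116 CPM in mut24 and 167 to 208 in mut48 against 95.6 to 114 in sib24 and 91.8 to 97.1 in sib48 (interaction 0.94, edgeR adjusted p = 0.000154).

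**Figure D5:**
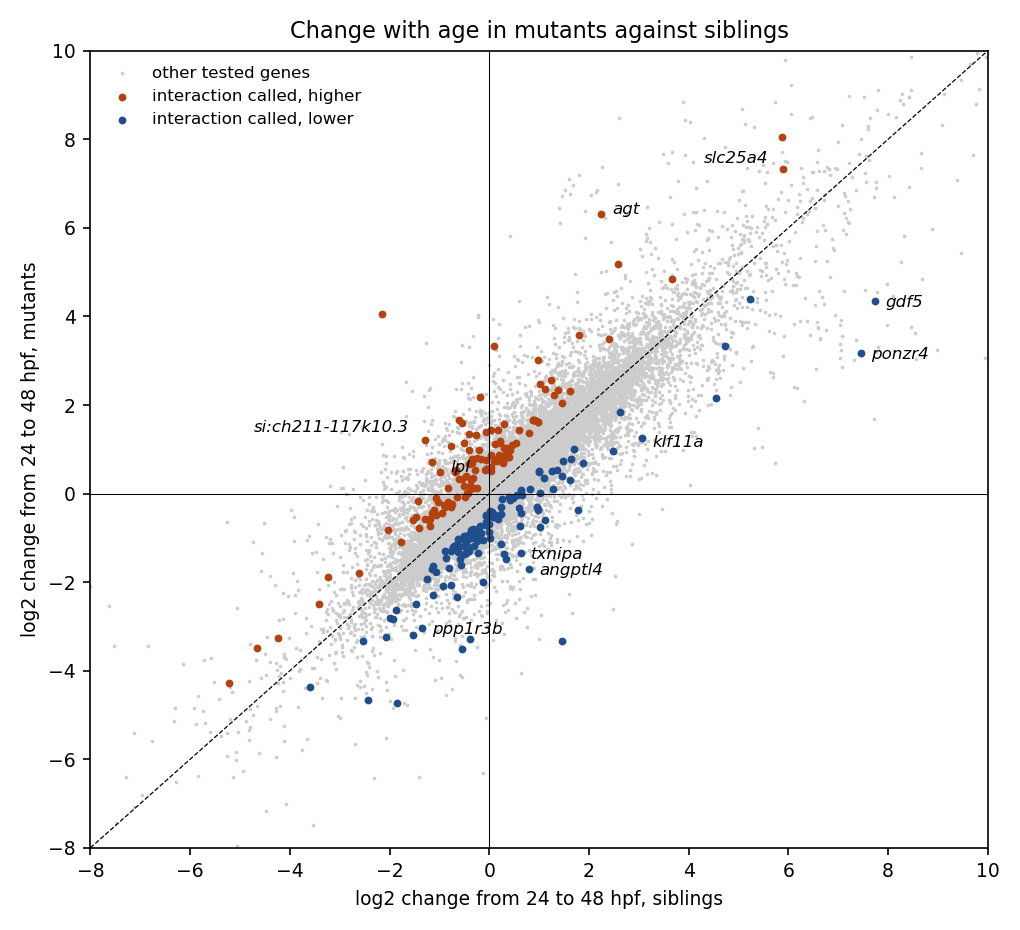
Change from 24 to 48 hpf in mutants (vertical axis, log2) against that in siblings (horizontal axis, log2) for each tested gene; 39 genes, 1 of them called, lie outside the axes. Called genes lie away from the dashed line of equal change, and lpl lies where levels fall in siblings and rise in mutants, with angptl4 and txnipa on the opposite side.

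The share of called genes on the chromosomes of the targeted genes was near that of all tested genes. By a RefSeq gene table (assembly GRCz12tu, used for chromosome names only) lipf lies on chromosome 12 and pla2g15 on chromosome 25. Of 220 called genes with a chromosome 13 (5.91%) lay there, 6 and 7 respectively, against 6.74% of the tested genes with one. A chromosome was found for 90.2% of called and 78.5% of tested genes, so the second share covers fewer than 80% of the genes. Of the genes described above, scd, tefa and irf9 lie on chromosome 12, and fads2, dusp6 and map1lc3b on chromosome 25. The part of this position in their values was not tested.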

How the data were processed

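The table that the authors deposited holds raw read counts per gene, neither normalised nor pooled, with 1 column per library. The submitters' processing notes name FastQC (0.12.1), Trim Galore (0.6.10), the aligner STAR (2.7.10b), featureCounts (2.0.6) and build GRCz11. The sources used here do not give the annotation, whether strand was used, or how reads that map to several genes were treated, so paralogs, overlapping and antisense genes are uncertain.

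Genes were kept by filterByExpr of edgeR with the 4 groups (11809 removed) and scaled by TMM. Interactions were tested with edgeR 4.0.16 in R 4.3.3 (glmQLFit and glmQLFTest, two-sided) on all 16 libraries, with 1 mean per group and no covariate. Calling used an adjusted p under 0.05 (Benjamini-Hochberg over all tested genes). The same fit gave the genotype effect at each age, the age effect in each genotype and their mean. CPM are TMM-scaled, and "apart" means that the 4 libraries of each genotype did not overlap. Nothing in the labels ties libraries to separate clutches, so the p-values cover the spread among these libraries alone, which may be technical. All 24 pairs of libraries within a group differed beyond sampling noise.

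The members, lists and rules were chosen with earlier results of these data known. Of 1601 list entries in 40 lists 1546 matched (42 by synonym), and 6 lists were added after values were seen. Named by rule were lipf, pla2g15, the 6 largest and 6 smallest called interactions with a symbol and at least 1 CPM in the highest group, the 4 smallest p, for each core list the 2 called members of smallest p (or the 1 member of smallest p), for each other list with at least 2 called members the 1 of smallest p, and the 4 smallest p among genes called in opposite directions at the 2 ages. This gave 37 genes, without 1 that is not reported here. Other genes were named after their values were seen. Counts simulated for 23952 genes were used to check the interaction test: it called 8.96% of genes given a change of log2 0.5, 52.2% at 1 and 83.3% at 2, and 5 of its 101 calls were false. Each gene was drawn independently, without variation shared by genes such as the split in yolk syncytial layer markers. The share of false calls may therefore not carry over to these data.

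Other settings tried were scaling by RLE or upper quartile, no filter, a stricter filter (1 CPM in 4 libraries), a minimum 1.5-fold, a block for replicate number, the tool DESeq2 (1.42.0) and the removal of each library. After seeing the data, a fit without the 4 libraries lowest in markers of the yolk syncytial layer and a fit with the mean of those markers as covariate were added.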

Additional observations from a re-analysis of the deposited data

Results flagged for a closer look

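The genotype effect differed between 24 and 48 hpf, by the edgeR test of the interaction itself, for 33 genes named by rule. Most of that rule picks genes by this same test, so the number is no separate result. Values on the log2 scale (genotype effect at 48 hpf minus that at 24 hpf) above 0 were 6.22 for irf1b, 4.07 for agt, 3.24 for ARF5 (1 of many), 2.61 for sdr42e2, 2.498 for si:ch211-117k10.3, 2.36 for scd, 2.17 for pvalb5, 2.14 for si:ch211-57n23.4, 2.04 for ddit3, 1.77 for fads2, 1.73 for mhc1zca, 1.58 for lipg, 1.49 for lpl and 1.27 for srebf1. Smaller values were 0.96 for tefa, 0.76 for krt18b, 0.67 for lamp1a, 0.66 for tpp1, 0.58 for dab2, 0.51 for rxraa and 0.44 for map1lc3b. Values below 0 were -4.28 for ponzr4, -3.40 for gdf5, -2.49 for angptl4, -2.39 for jac10, -1.97 for txnipa, -1.81 for klf11a, -1.70 for ENSDARG00000068947, -1.68 for ppp1r3b, -1.08 for dnajc3a, -1.02 for hadhaa, -0.76 for cap1 and -0.70 for chpt1.

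In 6 of 148 groups of 4 libraries, 1 library stood apart from the other 3, judged on log2 CPM by the gap to its neighbour over the range of the group (above the 95% critical value of Dixon's test). Chance gives about 1 in 20, here 7.4. The ratios were 0.869 for irf1b (mut24 replicate 2, high), 0.835 for scd (sib24 replicate 2, low), 0.841 for lpl (mut24 replicate 1, low), 0.873 for lpl (sib48 replicate 1, low), 0.916 for hadhaa (mut48 replicate 4, low) and 0.897 for dab2 (mut24 replicate 2, high). On the linear CPM scale other groups may stand out, such as irf1b in mut48, where replicate 3 at 29.8 CPM lay far above the others.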

How the results depend on the processing

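All 244 called genes kept their sign in every setting run that gave them a value. The settings share libraries with the main fit, so this is no independent support. Calls higher and lower, and genes changing more and less with age in mutants, moved as follows from 118 and 126, and from 148 and 65. Upper-quartile scaling gave 77 lower. No filter gave 51 lower and 95 changing more. A minimum of 1.5-fold gave 5, 5, 6 and 2. DESeq2 gave 464, 436, 479 and 274. Leaving out the 4 libraries with the least yolk syncytial layer marker signal gave 69, 33, 61 and 22, and fitting the mean of the markers 232, 255, 275 and 133. Fits without 1 library gave 52 to 149 higher, 31 to 209 lower, 37 to 221 changing more and 31 to 90 changing less. The cause was not tested. With the replicate number as a block they were 55, 42, 52 and 30. Of 24 same-numbered pairs 2 had deviations correlated above 0.1 (median 0.00099 against 0.012 for other pairs). Their correlations ran from -0.201 to 0.338. The 24 hpf libraries also differed in yolk syncytial layer markers, so this check cannot show whether the numbers pair libraries.

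The interactions of the targeted genes, near 0, changed sign: lipf was 0.022 with upper-quartile scaling, 0.030 with no filter, 0.031 with the block, 0.060 without the 4 libraries, and -0.46 to 0.26 in fits without 1 library, and pla2g15 was 0.015 with that mean fitted and -0.54 to 0.48 without 1 library. Of 33 named genes called, 23 stayed called in all fits without 1 library. Most of the 33 were named for a small p or a large interaction, which favours keeping the call. Of all 244 called genes, 71 stayed called in all these fits, and 140 were lost in 5 or more. Of the 33, 13 were lost without the 4 libraries, 9 with the block and 0 with the marker mean fitted, which kept all 244 calls. The marker mean comes from the same counts, so calls kept with it are no independent support. For irf1b DESeq2 gave no adjusted p. There were 4 libraries a group, and the median SE was 0.24. In the simulated counts, whose changed genes had a mean of at least 1 CPM, 52.2% were recovered at log2 of 1. Interactions under 2-fold were thus often missed there.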
